A study of Sus scrofa with 15 samples.

Results

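The translation initiation factor genes of the pig were described across 5 groups of samples from a study of somatic cell nuclear transfer (SCNT). They were found by a rule on names that uses no measured value, as every entry of the deposited expression table whose gene symbol begins with EIF and a digit from 1 to 6, and each gene ID was used once. This gave 51 genes among the 43294 features of the table (28224 annotated genes and 15070 unnamed transcripts assembled from the reads). All 51 were found in the NCBI annotation of Sscrofa11.1, with 48 listed as protein-coding and 3 (EIF2B4, EIF3B and EIF4B) listed as long noncoding RNA.

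RNA was sequenced from 15 libraries, 3 in each group. PFF are pig fetal fibroblasts, cultured at passage 2 to 5, whose nuclei were transferred into enucleated oocytes. SCNT4c and SCNT8c are cloned embryos at the 4-cell and 8-cell stages that received no treatment. SCNT4c-KG are 4-cell embryos that were injected with 1000 ng/µl mRNA of KDM4A, a demethylase of H3K9me3, at 5 h after activation, and were cultured with 0.1 µM GSK126, which blocks the H3K27 methyltransferase EZH2, for 48 h. SCNT4c-TDG are 4-cell embryos made from fibroblasts that carried a doxycycline-inducible vector for the DNA glycosylase TDG and had been selected with puromycin, and they were cultured with 500 ng/ml doxycycline from 40 h to 72 h. Each embryo library came from a pool of 30 embryos. Embryos given doxycycline without the vector, and fertilized embryos, were not analysed here, so vector, selection, doxycycline and TDG cannot be told apart. No library had KDM4A mRNA alone, GSK126 alone or a control injection. In SCNT4c-KG, KDM4A, GSK126 and the injection itself therefore cannot be told apart either. The labels do not say whether replicates came from separate cultures or oocyte collections, so p-values measure the spread between these libraries, which may be partly technical.

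Translation of most mRNAs begins when the cap-binding protein eIF4E, the scaffold eIF4G and the helicase eIF4A bring a ribosomal subunit to the 5′ end. That subunit carries eIF1, eIF1A, eIF3 and the ternary complex of eIF2 with initiator tRNA, and eIF5B joins the large subunit once the start codon is found. Kinases that phosphorylate eIF2, the exchange factor eIF2B that recharges it, and proteins that bind eIF4E set the rate. Early embryos use mRNA and protein stored by the oocyte until their own genome is activated, and transcripts of eIF1A are often used as a sign of that activation in mammals. EIF4E1B is an oocyte-type paralog of EIF4E that binds the cap in germ cells and early embryos.

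Values are normalized signal, which are read counts that the authors divided by 1 factor per library. Recovered reads ranged from 12354649 to 22868038 per library (median 19549670), lowest in SCNT4c-KG (12354649 to 15390472). Fibroblast markers fitted the labels, with a summed value of at least 3030840 in PFF and at most 4250 in any embryo library, and a list of 10 oocyte or early embryo markers summed to at most 21.5 in PFF and at least 52285 in embryos, with 7 of the 10 at a mean of 10 or more in each embryo group. PDGFRA was listed at 0 in PFF, and GDF9 and BMP15 were listed at 0 in all groups. Of the treatment genes, KDM4A ranged from 1429 to 1476 in SCNT4c-KG against 134 to 313 in SCNT4c, and TDG from 49857 to 59944 in SCNT4c-TDG against 939 to 2541 in SCNT4c. Each was also above SCNT4c in the other treated group, KDM4A at 555 to 918 in SCNT4c-TDG and TDG at 3886 to 4738 in SCNT4c-KG. SCNT8c replicate 3 stood apart from the other 8-cell libraries. It was the 8-cell library nearest to the SCNT4c mean for 37 of the 45 initiation factor genes tested in embryos and for 55.4% of all 18942 features tested, so the fold changes of genes called at the 8-cell stage are also given without it. Since it was singled out by its closeness to SCNT4c on these same values, leaving it out widens the 8-cell differences by construction, and values without it are a description with no test. Mitochondrial transcripts took 8.26% to 9.42% of reads in SCNT4c-TDG and 0.909% to 2.47% in the other embryos, and their part in the SCNT4c-TDG results was not tested. The SCNT4c-TDG samples carry a separate run of sample numbers, and the labels used here name no batch or hour of harvest. A difference in either cannot be told apart from the treatment.

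The initiation factor genes took 0.922% to 0.965% of reads in PFF, 1.37% to 1.60% in SCNT4c, 2.09% to 2.28% in SCNT4c-KG, 1.52% to 1.76% in SCNT4c-TDG and 1.495% to 2.17% in SCNT8c. Per kilobase of exon, EIF4G2 was the highest of them in PFF at 21194 ± 420 (SD, n = 3), followed by EIF1 at 15016 ± 473. EIF1 was the highest in each embryo group, with 58461 ± 3026.4 per kilobase in SCNT4c and 40234 ± 10697 in SCNT8c. Shares and ranks rest on the values as listed, which for some of these genes leave out assembled transcripts at the same locus. In bulk samples, fewer cells of a type and less RNA per cell cannot be told apart.

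2 pairs of paralogs carry much of what follows, and their coding sequences show how far a 150-base read can separate them. Coding sequences were read from the Sscrofa11.1 genome by the NCBI annotation, and positions count from 1 at the start codon. EIF1AX lies on chromosome X (chrX:16429625-16449581, minus strand) and EIF1AY on chromosome Y (chrY:9687350-9704489, minus strand). Their coding bases were 81.4% identical over 424 aligned bases. The stretches below, bases 91 to 240 of each, are the most alike pair of 150 bases, and capitals mark the 11 bases that differ.
EIF1AX: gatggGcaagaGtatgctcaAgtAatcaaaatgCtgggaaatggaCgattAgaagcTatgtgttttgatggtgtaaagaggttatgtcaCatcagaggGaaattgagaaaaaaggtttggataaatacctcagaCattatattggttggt
EIF1AY: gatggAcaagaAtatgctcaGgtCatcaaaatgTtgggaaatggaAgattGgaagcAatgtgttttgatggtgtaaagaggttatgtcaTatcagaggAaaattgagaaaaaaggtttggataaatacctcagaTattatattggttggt

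EIF4E lies on chromosome 8 (chr8:121409633-121464467, plus strand) and EIF4E1B on chromosome 2 (chr2:81277086-81281668, minus strand), with 66.3% identity over 757 aligned coding bases. Bases 436 to 585 of EIF4E and 409 to 558 of EIF4E1B are their most alike ungapped stretch, and 43 of the 150 bases, in capitals, differ.
EIF4E: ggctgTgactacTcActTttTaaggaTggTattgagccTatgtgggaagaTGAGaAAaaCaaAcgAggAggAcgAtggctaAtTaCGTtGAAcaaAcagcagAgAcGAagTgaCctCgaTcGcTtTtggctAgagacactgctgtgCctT
EIF4E1B: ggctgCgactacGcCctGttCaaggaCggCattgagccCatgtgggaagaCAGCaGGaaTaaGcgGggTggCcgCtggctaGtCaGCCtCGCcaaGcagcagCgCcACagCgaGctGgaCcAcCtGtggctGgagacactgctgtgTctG
Aligned 150-base windows of coding sequence held at least 11 mismatches between EIF1AX and EIF1AY and at least 40 between EIF4E and EIF4E1B.

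Of the 51 genes, 45 averaged 10 or more in the 12 embryo libraries and were tested among embryos, and 46 were tested between SCNT4c and PFF. EIF3A, EIF3M and EIF4EBP1 were listed at 0 in all 15 libraries, and EIF3K in all but SCNT4c-TDG replicate 3 (6.12). Some of these 4 are genes that every cell uses, so only the listing is reported for them. EIF4A1, EIF4G1 and EIF5A had few reads even in PFF (20 to 32, 65 to 80 and 143 to 160), and their values are given as listed. EIF4A1 and EIF4G1 had an embryo mean below 10 and were tested against PFF alone, and EIF2A was tested among embryos alone. Assembled transcripts without a name lie at some of these loci. With their reads added, the locus of EIF3M had a mean of 395 in PFF and 1745 in SCNT4c, and that of EIF2A had 3449 and 1116. The exons of 8 members (EIF1AD, EIF2AK1, EIF2AK4, EIF3G, EIF4A2, EIF4E3, EIF4EBP2 and EIF5B) overlap those of a gene on the opposite strand, and since no strand setting is stated for the counting, reads of the 2 genes in such overlaps cannot be told apart.

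A gene was called changed when its Benjamini-Hochberg adjusted p from limma, over all features tested, was below 0.05 and the change exceeded 2-fold. Between SCNT4c-KG and SCNT4c, 19 of the 45 genes rose and 6 fell, against 37.2% of all features changed (17.6% higher and 19.6% lower), and the median log2 fold change was 0.94 for the genes and -0.30 for all features. Without SCNT4c library a these medians were 0.56 and -0.24. The values of 25 genes were higher and of 8 genes lower in all 3 treated libraries than in any SCNT4c library, and 53.9% of all features did not overlap in this way. Between SCNT4c-TDG and SCNT4c, 11 rose and 6 fell, against 33.3% of all features changed (15.7% higher and 17.6% lower), with medians of 0.10 and -0.26. With DESeq2 the split was 15 higher and 5 lower, against 36.9% of all features changed (54.2% of those higher). The median of the genes was -0.07 without SCNT4c library a, 0.33 with DESeq2 and 0.37 with equal totals or quantile normalization. Of the 45 genes, 18 lay higher and 13 lower without overlap, against 58.4% of all features without overlap. Between SCNT8c and SCNT4c, 8 rose and 1 fell, against 5.79% of all features changed (2.62% higher and 3.16% lower), with medians of 0.73 and -0.31. The share of higher genes among all features called was 45.3% here, 79.5% with edgeR (9 genes of this family higher and 1 lower) and 71.8% with DESeq2 (17 higher and 1 lower). Of all features, 4.45% were called with edgeR and 14.4% with DESeq2. By limma's values 9 genes lay higher and 5 lower without overlap, against 23.5% of all features. Without SCNT8c replicate 3 the counts were 21 and 6, against 32.3% of all features changed (12.4% higher and 19.9% lower). That library lay nearest to SCNT4c for a larger share of these genes than of all features, so these shares cannot be compared. These 3 comparisons share the SCNT4c libraries, so their results are not independent of each other.

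**Figure D1:**
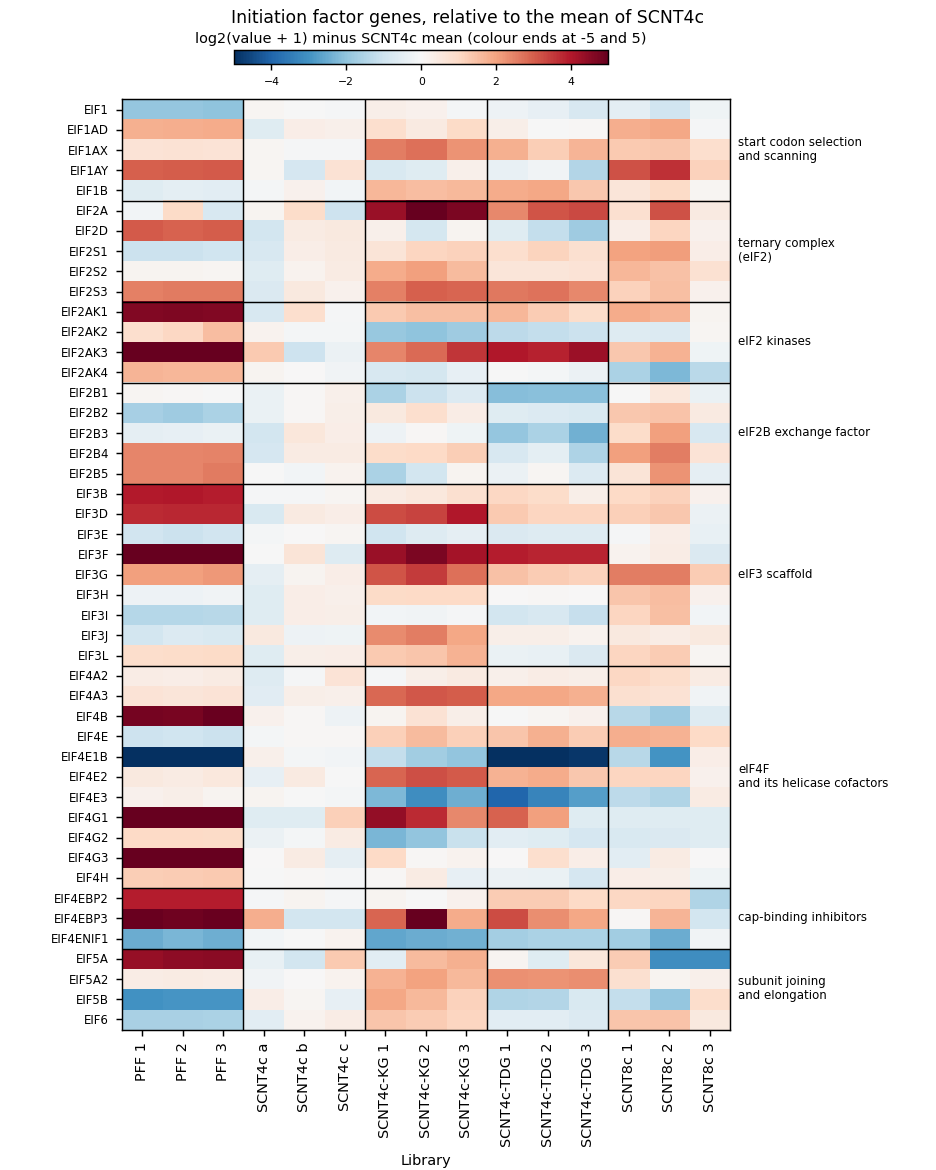
Each row is 1 of the 46 initiation factor genes that averaged 10 or more in the 15 libraries, grouped by role, and each column is a library. Colour is log2(value + 1) minus the mean of SCNT4c, from blue (lower) to red (higher), ending at -5 and 5. SCNT8c replicate 3 is the palest 8-cell column for most genes (nearest to SCNT4c in 37 of the 45 tested), and EIF4E1B is dark blue in PFF and SCNT4c-TDG.

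EIF1AX encodes eIF1A, which scans for the start codon with eIF1, and it rose in both treated groups and at the 8-cell stage. Its values were 4565, 4139 and 4166 in SCNT4c, 25128, 29274 and 20499 in SCNT4c-KG, 14761, 10136 and 13988 in SCNT4c-TDG, 10694, 11013 and 7702 in SCNT8c and 6884, 7007 and 6873 in PFF. Every treated and 8-cell library lay above every SCNT4c library, SCNT8c replicate 3 included, and the SCNT4c-KG libraries were the highest. The log2 fold change against SCNT4c was 2.53 ± 0.25 (SE) in SCNT4c-KG (5.76-fold, adjusted p = 2.46e-06), 1.58 ± 0.25 in SCNT4c-TDG (2.98-fold, adjusted p = 0.00021) and 1.18 ± 0.25 in SCNT8c (2.26-fold, adjusted p = 0.0238). The first 2 calls held under every alternative. The 8-cell call was lost when any library other than SCNT8c replicate 3 was left out (adjusted p up to 0.0881), and without SCNT8c replicate 3 the log2 fold change was 1.34. In SCNT4c the gene was 0.69 ± 0.08 below PFF on the log2 scale, under the 2-fold limit, with adjusted p = 0.000286.

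EIF1AY, the Y-linked copy of EIF1AX, had a different profile. It stood at 1125, 1170.4 and 1194 in PFF and at 151, 78.6 and 235 in SCNT4c. The values were 83.3, 92.6 and 169.6 in SCNT4c-KG and 108, 124 and 49.7 in SCNT4c-TDG, which overlapped SCNT4c, and 1277, 1791 and 313 in SCNT8c, which did not. The log2 difference of SCNT4c from PFF was -3.04 ± 0.40 (adjusted p = 0.000517). It rose by 2.66 ± 0.64 from SCNT4c to SCNT8c (adjusted p = 0.0322), and by 3.42 without SCNT8c replicate 3, although the call was lost when any other library of the comparison was left out (adjusted p up to 0.127). The log2 difference from SCNT4c was -0.36 ± 0.64 in SCNT4c-KG (adjusted p = 0.682) and -0.68 ± 0.64 in SCNT4c-TDG (adjusted p = 0.433). Per kilobase of exon, EIF1AY made up 31.4% ± 0.668 (SD, n = 3) of the pair in PFF, 8.81% ± 4.22 in SCNT4c, 1.32% ± 0.766 in SCNT4c-KG, 2.04% ± 1.14 in SCNT4c-TDG and 21.7% ± 10.6 in SCNT8c.

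EIF1, which keeps the ribosome open until the start codon is matched, and its paralog EIF1B differed in their response. EIF1 had values of 80550.3, 75574 and 72749.6 in SCNT4c, 93030.2, 88299 and 70965 in SCNT4c-KG, 64494, 57145 and 43501 in SCNT4c-TDG and 53799, 37944 and 65772 in SCNT8c, and in none of these comparisons was it called (adjusted p from 0.137 to 0.697). It was 1.96 ± 0.06 higher on the log2 scale in SCNT4c than in PFF, where its values were 19809.7, 20078 and 18902 (adjusted p = 1.07e-06). EIF1B had values of 1869, 2342 and 1805 in SCNT4c, 6299, 5805 and 6112 in SCNT4c-KG, 7267, 7565 and 5139 in SCNT4c-TDG, 3012, 3831 and 2107 in SCNT8c and 1319, 1428 and 1397 in PFF. All treated libraries were above all SCNT4c libraries, and the rises were 1.61 ± 0.27 in SCNT4c-KG (adjusted p = 0.000399) and 1.72 ± 0.27 in SCNT4c-TDG (adjusted p = 0.000246). EIF1B was 5.61% ± 0.824 (SD, n = 3) of the pair per kilobase in SCNT4c, 14.2% ± 1.85 in SCNT4c-KG and 21.4% ± 1.41 in SCNT4c-TDG.

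**Figure D2:**
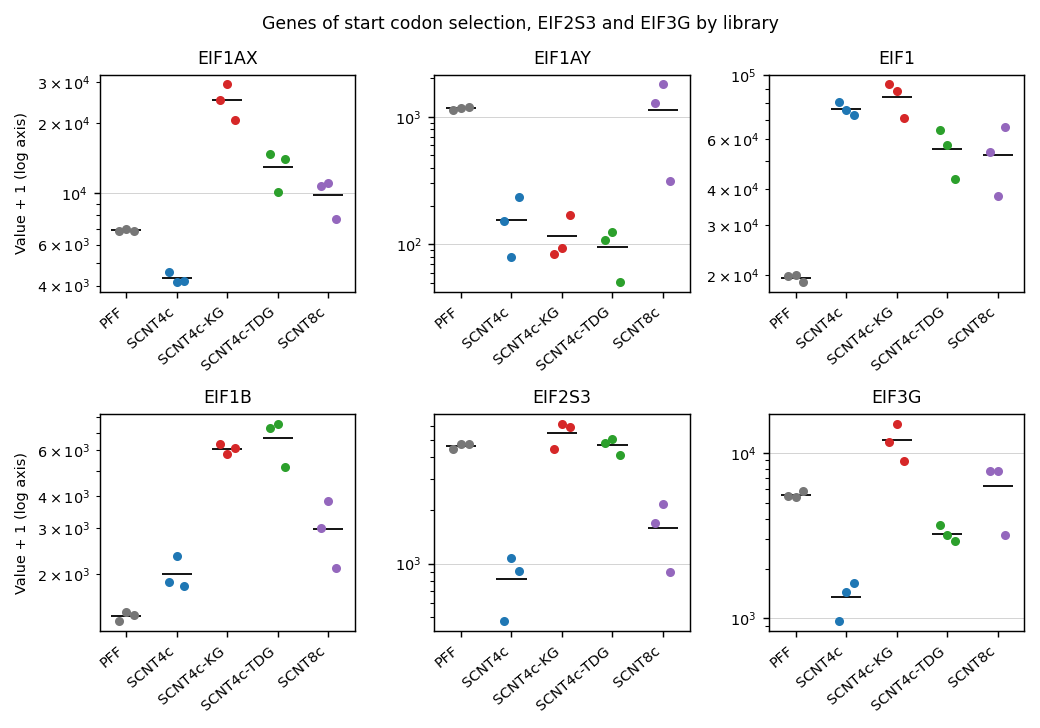
Values plus 1 on log axes for EIF1AX, EIF1AY, EIF1, EIF1B, EIF2S3 and EIF3G, with 1 point per library and a bar at the mean of each group. EIF1AX has its highest points in SCNT4c-KG (20499 to 29274), while EIF1AY is highest in PFF and in SCNT8c replicates 1 and 2.

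The genes whose values followed EIF1AX most closely were found by Pearson's r on log2(value + 1) over the 12 embryo libraries, among 44 other genes. The closest were EIF4E2 (r = 0.93), EIF2A (0.91), EIF4A3 (0.90), EIF3G (0.89) and EIF2S3 (0.88). By Spearman's rho EIF3D came first at 0.88 and EIF2S3 fell to the eighth place at 0.80. The libraries of 1 group share their treatment and pool size, so these coefficients describe the 4 groups more than 12 separate points.

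The cap-binding genes changed in opposite directions. EIF4E, the main cap-binding protein, had values of 6735, 7615 and 7464 in SCNT4c, 16498, 21551 and 16528 in SCNT4c-KG, 19201, 24817 and 17436 in SCNT4c-TDG, 25334, 24049 and 14337 in SCNT8c and 3515, 3622 and 3455 in PFF. No group of treated or 8-cell embryos overlapped SCNT4c. The rises were 1.31 ± 0.26 on the log2 scale in SCNT4c-KG (adjusted p = 0.00121), 1.48 ± 0.26 in SCNT4c-TDG (adjusted p = 0.000529) and 1.504 ± 0.260 in SCNT8c (adjusted p = 0.0152, and up to 0.0666 without SCNT4c library b or SCNT8c replicate 1 or 2, and a rise of 1.77 without SCNT8c replicate 3), and SCNT4c was 1.04 ± 0.09 above PFF (adjusted p = 6.06e-05). Under quantile normalization the rise in SCNT4c-KG was 0.94, below the 2-fold limit.

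EIF4E1B went the other way. It was nearly absent from PFF, where 2, 3 and 5 reads were recovered, and its values were 7383, 5700.1 and 5557 in SCNT4c. They were 2669, 1825 and 1586 in SCNT4c-KG, 188, 139.6 and 211 in SCNT4c-TDG and 2366, 785 and 7701 in SCNT8c. The SCNT4c-TDG libraries were the lowest of all embryos, the SCNT4c-KG libraries lay between them and SCNT4c, and SCNT8c replicate 3 was above every SCNT4c library while the other 2 8-cell libraries were below. From SCNT4c the gene fell by 5.11 ± 0.57 on the log2 scale in SCNT4c-TDG (34.6-fold, adjusted p = 1.09e-05) and by 1.64 ± 0.57 in SCNT4c-KG (3.12-fold, adjusted p = 0.0339). SCNT4c-TDG was 3.47 ± 0.57 below SCNT4c-KG (adjusted p = 0.000953). The SCNT4c-KG call was lost when any 1 of 5 libraries was left out (adjusted p up to 0.104) and with all features above 0, and kept without SCNT4c-KG replicate 1. The summed oocyte or early embryo markers ran from 167477 to 228620 in SCNT4c and from 57868 to 62102 in SCNT4c-TDG. In SCNT4c-KG they ran from 110119 to 184447, which overlapped SCNT4c. H1FOO and ZP4 made up most of the sum in SCNT4c. Among these markers, the mean of H1FOO, the oocyte linker histone, was 106897 in SCNT4c and 11141 in SCNT4c-TDG, and that of ZP4, a zona pellucida gene, 74784 and 11245, while that of DPPA3, a maternal factor, was 4897 and 34780. In SCNT4c-KG the means of DPPA3, OOEP and ZP3 were 23345, 1405.5 and 667, against 4897, 708 and 28.1 in SCNT4c. Those of H1FOO, ZP4, ZP2, NLRP5 and ZAR1 were lower there than in SCNT4c. The part of these markers in the EIF4E1B result was not tested. At the 8-cell stage the difference was -1.34 ± 0.57 (adjusted p = 0.137) with all libraries and -2.18 without SCNT8c replicate 3.

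The 2 remaining paralogs differed as well. EIF4E2, a cap-binding protein that takes part in translational repression, had values of 1208, 2161 and 1566 in SCNT4c, 12178, 14921 and 13349 in SCNT4c-KG, 5329, 5801 and 4032 in SCNT4c-TDG, 3393, 3412 and 1853 in SCNT8c and 2223, 2146 and 2292 in PFF. It rose by 3.07 ± 0.30 in SCNT4c-KG (8.4-fold, adjusted p = 2.88e-06) and by 1.64 ± 0.30 in SCNT4c-TDG (adjusted p = 0.000813), without overlap in either. EIF4E3 had values of 1116, 994 and 939.9 in SCNT4c, 214, 117 and 185 in SCNT4c-KG, 64.4, 102 and 149.97 in SCNT4c-TDG, 406, 354 and 1349 in SCNT8c and 1186, 1244 and 1122 in PFF. It fell by 2.60 ± 0.50 in SCNT4c-KG (adjusted p = 0.001) and by 3.34 ± 0.50 in SCNT4c-TDG (adjusted p = 0.000147), and no treated library reached the lowest SCNT4c library.

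Measured per kilobase of exon, EIF4E1B was the most abundant of the 4 cap-binding genes in SCNT4c, at 3344 ± 547 against 1730 ± 112 for EIF4E. In the other groups EIF4E had the highest mean, at 840 ± 20.1 in PFF, 4327 ± 692 in SCNT4c-KG, 4873 ± 917 in SCNT4c-TDG and 5052 ± 1430 in SCNT8c. The share of EIF4E1B in the sum of the 4 was 67.5%, 58.1% and 58.8% in the SCNT4c libraries and 21.2%, 12.5% and 13.5% in SCNT4c-KG. It was 1.91%, 1.13% and 2.39% in SCNT4c-TDG, 16.4%, 6.41% and 52.0% in SCNT8c and at most 0.255% in PFF, so that SCNT8c replicate 3 was close to the SCNT4c libraries. The 3 groups of 4-cell embryos did not overlap in this share, and 3 libraries against 3 cannot give an exact two-sided permutation p below 0.1.

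**Figure D3:**
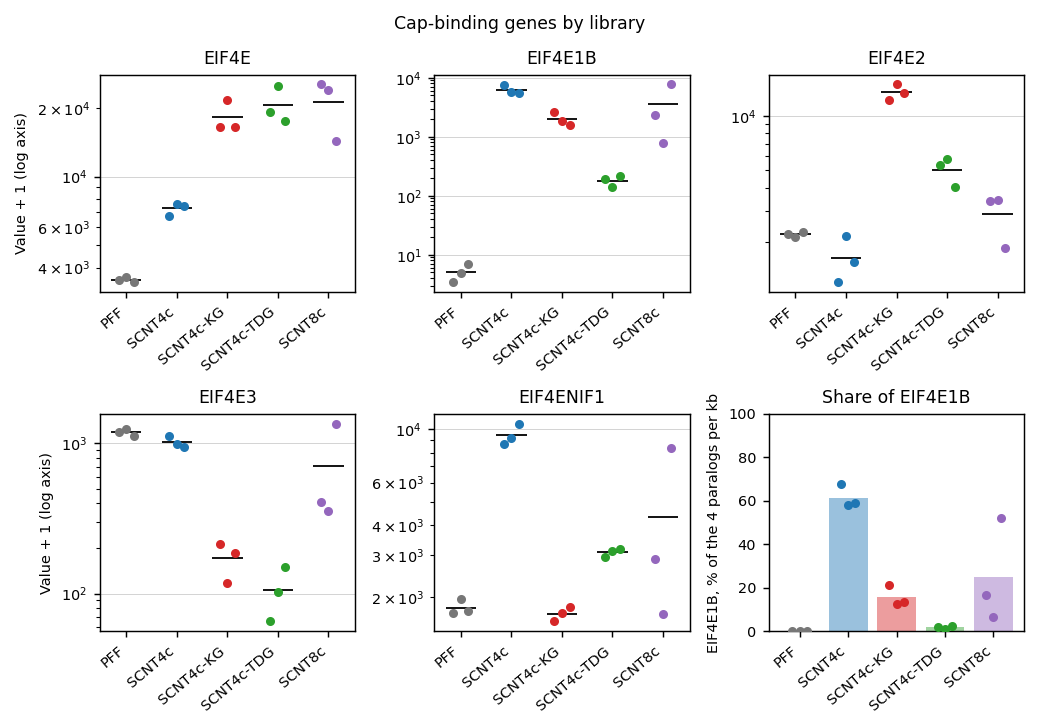
Values plus 1 on log axes for the 4 cap-binding paralogs and EIF4ENIF1, with 1 point per library and a bar at the group mean. The last panel gives EIF4E1B as a percentage of the 4 paralogs per kilobase of exon, with bars at the mean, which is 61.5% in SCNT4c, 15.7% in SCNT4c-KG and 1.81% in SCNT4c-TDG.

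Among the proteins that bind eIF4E, EIF4ENIF1, which encodes the transporter and repressor 4E-T, followed the direction of EIF4E1B. Its values were 8699.8, 9223 and 10556 in SCNT4c, 1581, 1706 and 1813 in SCNT4c-KG, 2941, 3117 and 3173 in SCNT4c-TDG, 2865, 1692 and 8365 in SCNT8c and 1705, 1955 and 1752 in PFF. No other library reached the SCNT4c range, and SCNT8c replicate 3 came closest. It fell by 2.48 ± 0.41 on the log2 scale in SCNT4c-KG (adjusted p = 0.00034) and by 1.62 ± 0.41 in SCNT4c-TDG (adjusted p = 0.00751), and it was 2.39 ± 0.11 higher in SCNT4c than in PFF (adjusted p = 5.79e-06). EIF4EBP2, an inhibitor that blocks the binding of eIF4E to eIF4G, had values of 384, 440.4 and 391 in SCNT4c against 6197, 6202 and 6182 in PFF, a difference of -3.93 ± 0.11 (adjusted p = 1.06e-06). It was 1.17 ± 0.53 above SCNT4c in SCNT4c-TDG (adjusted p = 0.0981). EIF4EBP3, another inhibitor of this kind, had values of 56.2, 53.5 and 56.0 in PFF, 5.52, 0 and 0 in SCNT4c, 13.1, 67.3 and 5.70 in SCNT4c-KG and 16.7, 8.44 and 6.12 in SCNT4c-TDG. SCNT4c-KG replicate 2 was above PFF and far above its own group. The call of this gene in SCNT4c-KG (adjusted p = 0.0381) was lost under 5 of the 10 other settings and without SCNT4c library b or c or SCNT4c-KG replicate 1 (adjusted p up to 0.123). Without SCNT4c-KG replicate 2 its mean fell below 10 and it was not tested.

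The helicase and scaffold genes were uneven. EIF4A3, a helicase of the exon junction complex, had values of 1129, 2033 and 1977 in SCNT4c, 12129, 14324 and 13476 in SCNT4c-KG, 6320.3, 6368 and 5690.4 in SCNT4c-TDG and 2877, 2713 and 1449.6 in SCNT8c. The treated groups were above SCNT4c without overlap, by 3.003 ± 0.308 in SCNT4c-KG (8.02-fold, adjusted p = 3.9e-06) and 1.89 ± 0.31 in SCNT4c-TDG (adjusted p = 0.000294). EIF4A2, the helicase of eIF4F with the higher values here, had values of 9133, 13578 and 22785 in SCNT4c, 13712, 17189 and 19526 in SCNT4c-KG, 16814, 18364 and 17303 in SCNT4c-TDG, 28868, 25975 and 18782 in SCNT8c and 18324, 17692 and 18835 in PFF, and it was not called in any comparison (adjusted p from 0.113 to 0.907). EIF4A1 was listed at 28.1, 25.5 and 38.1 in PFF and at 0 to 14.2 in embryos.

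EIF4G2, an eIF4G relative that lacks the eIF4E-binding part, had values of 32677, 37211 and 52679 in SCNT4c, 8257, 10113 and 18517 in SCNT4c-KG, 27848, 26258 and 22320.3 in SCNT4c-TDG, 23564, 24099 and 26347 in SCNT8c and 79934, 79444 and 77020.0 in PFF. SCNT4c-KG was lowest without overlap with any other group, and the fall from SCNT4c was 1.79 ± 0.29 on the log2 scale (3.46-fold, adjusted p = 0.000257). EIF4G1, the main scaffold, was listed at 81.0 to 97.7 in PFF and at 0 to 31.0 in embryos. EIF4G3 had values of 134, 175 and 95.5 in SCNT4c, 261, 135 and 149.6 in SCNT4c-KG, 131, 232 and 167 in SCNT4c-TDG and 89.6, 175 and 134 in SCNT8c, which overlapped, against 4502, 4901 and 4651 in PFF (-5.15 ± 0.24 in SCNT4c, adjusted p = 5.38e-06). EIF4B and EIF4H, cofactors of the helicase, were not called between embryo groups, with adjusted p from 0.0755 to 0.955, and the log2 difference of EIF4B between SCNT8c and SCNT4c was -1.28 with all libraries and -1.60 without SCNT8c replicate 3.

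Of the 5 genes of the eIF2 ternary complex and its alternatives, 3 rose in SCNT4c-KG, 2 in SCNT4c-TDG and 1 in SCNT8c, beside 17.6%, 15.7% and 2.62% of all features called higher. EIF2D, which can also place initiator tRNA, was not called (-1.20 ± 0.52 in SCNT4c-TDG, adjusted p = 0.0859). EIF2S3, the X-linked subunit that binds GTP and the initiator tRNA, had values of 472, 1076 and 907 in SCNT4c, 4399, 6145 and 5882 in SCNT4c-KG, 4769.9, 5065 and 4075 in SCNT4c-TDG, 1696, 2178 and 893 in SCNT8c and 4426, 4711 and 4710.2 in PFF. Both treated groups were in or near the range of PFF and above SCNT4c without overlap, by 2.81 ± 0.37 on the log2 scale in SCNT4c-KG (7.01-fold, adjusted p = 3.95e-05) and 2.58 ± 0.37 in SCNT4c-TDG (5.97-fold, adjusted p = 9.04e-05). EIF2S2, the beta subunit, had values of 5303, 9097 and 10828 in SCNT4c, 29059, 33127 and 24409 in SCNT4c-KG, 12333, 12337 and 12772 in SCNT4c-TDG and 25503, 22088 and 13504 in SCNT8c. It rose by 1.83 ± 0.30 in SCNT4c-KG (adjusted p = 0.000273) and by 1.29 ± 0.30 in SCNT8c (adjusted p = 0.0291, and up to 0.116 without SCNT4c library a or b or SCNT8c replicate 1 or 2, and a rise of 1.56 without SCNT8c replicate 3).

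EIF2S1, the alpha subunit that the kinases phosphorylate, had values of 4438, 9719.8 and 10371 in SCNT4c, 11874, 16039 and 17131 in SCNT4c-KG and 13521, 16390.5 and 13225 in SCNT4c-TDG. Neither treated group overlapped SCNT4c, and neither difference was called (0.96 ± 0.42, adjusted p = 0.085, and 0.90 ± 0.42, adjusted p = 0.11). In SCNT8c its values were 31224, 32828 and 9678, with adjusted p = 0.0501, and without SCNT8c replicate 3 the log2 fold change was 2.07. EIF2A, a factor that can deliver initiator tRNA without eIF2, was listed at 3.15, 6.12 and 0.83 in SCNT4c, 75.1, 166 and 98.3 in SCNT4c-KG and 19.2, 32.2 and 36.7 in SCNT4c-TDG. It was called in both (adjusted p = 0.000712 and 0.0188), but its SCNT4c values rest on 4, 7 and 1 reads. With the assembled transcript of its locus added, the means were 1116 in SCNT4c, 3714 in SCNT4c-KG and 3674 in SCNT4c-TDG, and the log2 fold changes were 1.75 and 1.55. The SCNT4c-TDG call was lost without SCNT4c library c or SCNT4c-TDG replicate 2 or 3 (adjusted p up to 0.0698).

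Of the 5 genes of eIF2B, which exchanges GDP for GTP on eIF2, 1 fell in SCNT4c-KG and 2 fell in SCNT4c-TDG, beside 19.6% and 17.6% of all features called lower, and the others were not called there. EIF2B1 had values of 1317, 1710.1 and 1954 in SCNT4c, 549, 779 and 1027 in SCNT4c-KG and 378, 379.7 and 383 in SCNT4c-TDG, with no overlap. The log2 fold change was -1.11 ± 0.33 in SCNT4c-KG (adjusted p = 0.0157, and up to 0.073 without SCNT4c library b or c or SCNT4c-KG replicate 1, and under the 2-fold limit with edgeR and with DESeq2, where it was -0.93) and -2.105 ± 0.328 in SCNT4c-TDG (4.3-fold lower, adjusted p = 0.000205). EIF2B3 had values of 613, 1753 and 1485 in SCNT4c, 977, 1202 and 1012 in SCNT4c-KG and 304, 389.7 and 223 in SCNT4c-TDG, where it fell by 1.97 ± 0.57 (adjusted p = 0.0152, and up to 0.071 without SCNT4c library b or c or SCNT4c-TDG replicate 3). At the 8-cell stage EIF2B2, with 10764, 11356 and 5746 against 3392, 4412 and 5183 in SCNT4c, rose by 1.06 ± 0.29 (adjusted p = 0.047). EIF2B4, with 1805, 2547 and 688 against 245, 575 and 575, rose by 1.76 ± 0.49 (adjusted p = 0.0465). Both 8-cell calls were lost when any library other than SCNT8c replicate 3 was left out, with adjusted p up to 0.163, and also with a pseudocount of 0.1 or with all features above 0. Without SCNT8c replicate 3 the rises were 1.37 and 2.31.

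The 4 kinases of eIF2 each respond to a different stress and moved in different directions. EIF2AK2, the kinase PKR that senses double-stranded RNA, had values of 3395, 2871 and 2871 in SCNT4c, 809, 759 and 886 in SCNT4c-KG and 1240.1, 1329 and 1422 in SCNT4c-TDG. It fell without overlap by 1.89 ± 0.28 in SCNT4c-KG (adjusted p = 0.000114) and by 1.19 ± 0.28 in SCNT4c-TDG (adjusted p = 0.00413), although the second fall was 0.90 to 0.92 on the log2 scale with DESeq2, edgeR or equal totals and missed the 2-fold limit. EIF2AK3, the kinase PERK of the endoplasmic reticulum, had values of 17.4, 2.62 and 4.98 in SCNT4c, 39.2, 52.0 and 86.9 in SCNT4c-KG, 117, 105.9 and 142 in SCNT4c-TDG and 353, 418 and 396 in PFF. It rose by 2.96 ± 0.79 in SCNT4c-KG (adjusted p = 0.00891) and by 4.05 ± 0.79 in SCNT4c-TDG (adjusted p = 0.00121), from 22, 3 and 6 reads in SCNT4c. Without SCNT4c library a the values were 3.62 and 4.71, and under the other settings they ran from 1.95 to 3.34 and from 2.92 to 4.67. EIF2AK4, the kinase GCN2 that senses amino acid shortage, was 133, 85.6 and 158 in SCNT8c against 453, 412 and 360.3 in SCNT4c, a fall of 1.73 ± 0.37 (adjusted p = 0.0243, and up to 0.0828 when any library other than SCNT8c replicate 3 was left out, with the call lost too when the assembled transcript of its locus was added, and -1.92 without SCNT8c replicate 3). EIF2AK1, the heme-regulated kinase, had values of 43.4, 136 and 73.9 in SCNT4c, 189, 214 and 217 in SCNT4c-KG and 1911, 1965 and 1916 in PFF. It was called higher in SCNT4c-KG (1.43 ± 0.54, adjusted p = 0.0481), but 3 assembled transcripts at its locus turned the value to -0.32 when they were added, and the call was kept without SCNT4c library b and lost without any of the other 5 libraries (adjusted p up to 0.178), with edgeR, with equal totals, with a pseudocount of 0.1 or with all features above 0.

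**Figure D4:**
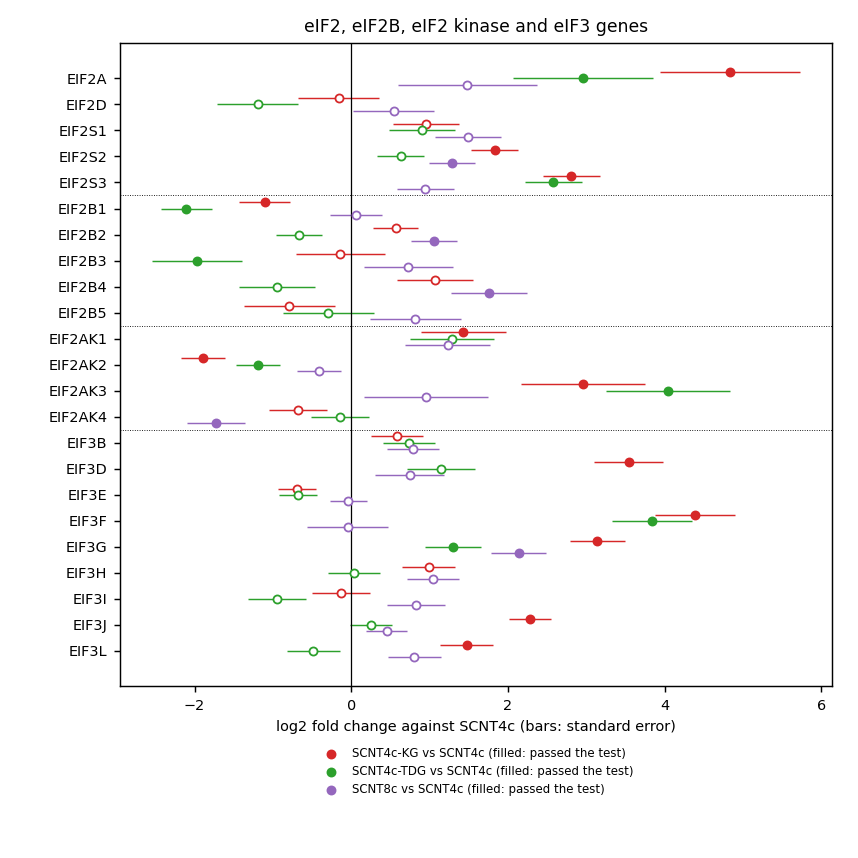
Log2 fold changes against SCNT4c, with standard errors, for the genes of eIF2, eIF2B, the eIF2 kinases and eIF3 in SCNT4c-KG (red), SCNT4c-TDG (green) and SCNT8c (purple). Filled points passed the test. EIF2B1 and EIF2B3 lie to the left in SCNT4c-TDG, and EIF3D and EIF3F lie beyond 3 in SCNT4c-KG.

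Of the 12 subunit genes of eIF3, the large scaffold that holds the small ribosomal subunit, 9 were tested. In SCNT4c-KG 5 rose, in SCNT4c-TDG 2 and in SCNT8c 1, beside 17.6%, 15.7% and 2.62% of all features called higher, and the others were not called. EIF3F had values of 21.3, 34.1 and 13.3 in SCNT4c, 441, 579.9 and 399 in SCNT4c-KG, 339, 313 and 308 in SCNT4c-TDG, 24.3, 28.3 and 12.7 in SCNT8c and 3339, 3279.5 and 3309.8 in PFF. The treated groups stood between the low values of untreated embryos at both stages and the high values of PFF, with rises of 4.39 ± 0.51 in SCNT4c-KG (20.9-fold, adjusted p = 1.45e-05) and 3.84 ± 0.51 in SCNT4c-TDG (14.3-fold, adjusted p = 5.51e-05). EIF3D, a subunit that can itself bind the cap of some mRNAs, had values of 254, 586 and 547 in SCNT4c, 4151, 4516 and 6934 in SCNT4c-KG, 1076, 903 and 915.1 in SCNT4c-TDG, 989.6, 1105 and 351 in SCNT8c and 5757, 5887 and 5921 in PFF. Its rise was 3.54 ± 0.44 in SCNT4c-KG (11.7-fold, adjusted p = 2.46e-05), and in SCNT4c-TDG the difference was 1.15 ± 0.44 (adjusted p = 0.0549).

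EIF3G, a subunit that takes part in scanning, had values of 959, 1449 and 1634 in SCNT4c, 11678, 14968 and 8932 in SCNT4c-KG, 3661, 3179 and 2914 in SCNT4c-TDG, 7777, 7804 and 3183 in SCNT8c and 5483, 5401 and 5876 in PFF. All treated and 8-cell libraries were above all SCNT4c libraries. It rose by 3.14 ± 0.35 in SCNT4c-KG (8.82-fold, adjusted p = 9.75e-06), by 1.30 ± 0.35 in SCNT4c-TDG (adjusted p = 0.0106, and 0.0504 without SCNT4c library a) and by 2.14 ± 0.35 in SCNT8c (4.4-fold, adjusted p = 0.0144). The 8-cell call was lost without SCNT4c library b or SCNT8c replicate 1 (adjusted p up to 0.0643) and was 2.57 without SCNT8c replicate 3. EIF3J, a loosely bound subunit, had values of 4198, 2503 and 2557 in SCNT4c, 15283, 17684 and 11384 in SCNT4c-KG, 3716, 3623 and 3374 in SCNT4c-TDG and 4246, 3861 and 4184 in SCNT8c. SCNT4c-KG was the group that lay wholly above SCNT4c, and the rise was 2.28 ± 0.27 (adjusted p = 1.37e-05). EIF3E, EIF3H and EIF3I were not called between SCNT4c and any other embryo group with all libraries in the fit. Their 8-cell log2 differences without SCNT8c replicate 3 were 0.13 for EIF3E, 1.47 for EIF3H and 1.297 for EIF3I. In SCNT4c-KG the difference of EIF3H was 0.99 ± 0.33 (adjusted p = 0.0302), just under the 2-fold limit. The values of EIF3E were 14890.5, 16374 and 17177 in SCNT4c against 8068, 10433 and 11798 in SCNT4c-KG (-0.69 ± 0.24, adjusted p = 0.0345, under the 2-fold limit).

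The late factors had unlike profiles. EIF5B, the GTPase of subunit joining, had values of 19695, 16871 and 11752 in SCNT4c, 59646, 48194 and 35299.9 in SCNT4c-KG, 5533, 5676 and 9323 in SCNT4c-TDG, 6915, 4144 and 29299.7 in SCNT8c and 1920.4, 2034 and 2031 in PFF. SCNT4c-KG was above and SCNT4c-TDG below SCNT4c without overlap, and SCNT8c replicate 3 lay above SCNT4c while the other 8-cell libraries lay below. It rose by 1.57 ± 0.52 in SCNT4c-KG (adjusted p = 0.0273, and up to 0.0946 without SCNT4c library b or c or SCNT4c-KG replicate 1 or 2), and in SCNT4c-TDG the difference was -1.25 ± 0.52 (adjusted p = 0.0763). EIF6, which keeps the ribosomal subunits apart, had values of 9619, 15704 and 17818 in SCNT4c, 36473, 33561 and 29133 in SCNT4c-KG, 9774, 9749.8 and 8604 in SCNT4c-TDG and 36235, 37181 and 19263 in SCNT8c. It rose by 1.24 ± 0.29 in SCNT4c-KG (adjusted p = 0.0041, and below the 2-fold limit without SCNT4c library a (0.98) or with quantile normalization (0.99)) and by 1.09 ± 0.29 in SCNT8c (adjusted p = 0.0433, and up to 0.154 when any library other than SCNT8c replicate 3 was left out). The second call was also lost with a pseudocount of 0.1 or with all features above 0, and the rise was 1.40 without SCNT8c replicate 3.

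EIF5A2, a paralog of the hypusine-containing factor EIF5A, had values of 1049.8, 1201 and 1328 in SCNT4c, 3994, 4806 and 3608 in SCNT4c-KG, 5757, 5619.7 and 5885 in SCNT4c-TDG, 2075, 1308 and 1429 in SCNT8c and 1532, 1591 and 1548 in PFF. It rose without overlap by 1.79 ± 0.26 in SCNT4c-KG (adjusted p = 0.000109) and by 2.28 ± 0.26 in SCNT4c-TDG (adjusted p = 1.41e-05). EIF5A itself was listed at 175, 187 and 191 in PFF and at 0 to 28.5 in embryos. Its locus also holds 2 assembled transcripts, and with them the means were 193 in PFF and 666 in SCNT4c, so that the log2 difference of SCNT4c from PFF turned from -4.45 to 1.71.

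Without SCNT8c replicate 3, chosen as stated above, the number of genes past both limits at the 8-cell stage was 27 in place of 9. On the higher side were 6 of 9 eIF3 genes, 4 of 5 eIF2B genes and 3 of 5 ternary complex genes. So were 3 of 5 genes of start codon selection. Those of eIF4F gave 2 higher and 3 lower of 10, and the kinases, inhibitors and late factors 1 higher and 1 lower each. SCNT8c replicate 3 was nearest to SCNT4c for 37 of the 45 genes, against 55.4% of all features. Leaving it out therefore widens more of these genes by construction, and their share cannot be compared with the 12.4% of all features that were higher. The log2 differences from SCNT4c were then 1.27 for EIF3D, 1.31 for EIF2S3 and 1.09 for EIF4E2. On the lower side they were -2.103 for EIF4ENIF1, -1.56 for EIF5B and -1.42 for EIF4E3. With all libraries in the fit these 6 genes were not called.

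Against the donor cells, 9 of 46 genes were higher and 22 lower in SCNT4c, beside 78.2% of all features changed (39.7% higher and 38.5% lower), with medians of -0.95 for the genes and 0.07 for all features. The share of genes that did not overlap was 87.0%, and it was 84.5% over all features. With DESeq2 size factors the median of all features moved to 1.01 and the split to 14 higher and 18 lower, while the median of the genes moved to -0.10. DESeq2 called 78.2% of all features, and 60.6% of those were higher. The genes named below kept their direction under each of the scalings tried. EIF4E1B was higher by 10.31 ± 0.31 on the log2(value + 1) scale (adjusted p = 1.25e-06), and by 8.78 to 11.35 under the other settings, since it rests on 2 to 5 reads in each PFF library. It was followed by EIF5B at 2.98 ± 0.19 (adjusted p = 2.1e-05) and EIF4ENIF1. Among the lower genes were EIF3F (-7.21 ± 0.34, adjusted p = 5.93e-06), EIF2AK3 (-5.72 ± 0.61, adjusted p = 0.00019, and from -6.48 to -4.52 under the other settings) and EIF4G3. EIF4G1 was also called lower, with 80, 65 and 68 reads in PFF and 0, 0 and 3 in SCNT4c, too few for a dependable fold change. EIF4B, the cofactor of the helicase, was 241, 215 and 171 in SCNT4c against 5704, 5578 and 6312 in PFF (-4.82 ± 0.17, adjusted p = 1.89e-06). EIF3B, the core eIF3 subunit, was 502, 507 and 556 against 8091, 8315 and 7833 (-3.95 ± 0.10, adjusted p = 8.08e-07). All 4 eIF2 kinases were lower, from -1.14 for EIF2AK2 to -5.72 for EIF2AK3. The call of EIF2AK2 was lost with DESeq2, edgeR, equal totals or quantile normalization and without PFF replicate 3 (-0.38 at the smallest). That of EIF2AK4 was lost with DESeq2, edgeR or quantile normalization (-0.64 at the smallest).

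The 2 treatments differed from each other in 14 of the 45 genes, with 1 higher and 13 lower in SCNT4c-TDG than in SCNT4c-KG, beside 16.2% of all features changed (7.07% higher and 9.13% lower). The medians were -0.64 for the genes and -0.02 for all features. With the same total in each library the median of all features was 0.32, the share of higher ones among all features called moved from 43.6% to 63.7%, and the split of the genes was 3 higher and 9 lower. After EIF4E1B, the largest differences were those of EIF5B (-2.81 ± 0.52, adjusted p = 0.00213), EIF3D (-2.40 ± 0.44, adjusted p = 0.00198), EIF3J (-2.03 ± 0.27, adjusted p = 0.000186) and EIF2B4 (-2.02 ± 0.49, adjusted p = 0.0105). The values of EIF2B4 were 246, 308 and 147 in SCNT4c-TDG and 827, 874 and 1029 in SCNT4c-KG. EIF3L, with 2561, 2529.9 and 1968 in SCNT4c-TDG and 8153, 8537 and 10797 in SCNT4c-KG, differed by -1.96 ± 0.34 (adjusted p = 0.00137). EIF3G, EIF2B3, EIF6 and EIF4E2 followed with -1.84 to -1.43. EIF4G2 was the gene that was higher in SCNT4c-TDG (1.13 ± 0.29, adjusted p = 0.0146), and its call was lost without replicate 1 or 2 of either group (adjusted p up to 0.0775). EIF2B3 and EIF4A3 were not called once any library was left out (adjusted p up to 0.141 and 0.0835), EIF2B2 and EIF2S2 were not called without SCNT4c-KG replicate 2 (adjusted p = 0.0533 and 0.0597) or with equal totals or quantile normalization (-0.87 and -0.46 at the smallest), and EIF2B4 was not called without SCNT4c-TDG replicate 3 (adjusted p = 0.0599). EIF2B3 was also lost with edgeR, equal totals, a pseudocount of 0.1 or all features above 0. EIF4E2 missed the 2-fold limit with quantile normalization (-0.92), and EIF4A3 with either scaling, edgeR and DESeq2 (-0.56 at the smallest). For EIF1AX the difference was -0.95 ± 0.25 (adjusted p = 0.0164), under the 2-fold limit.

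**Figure D5:**
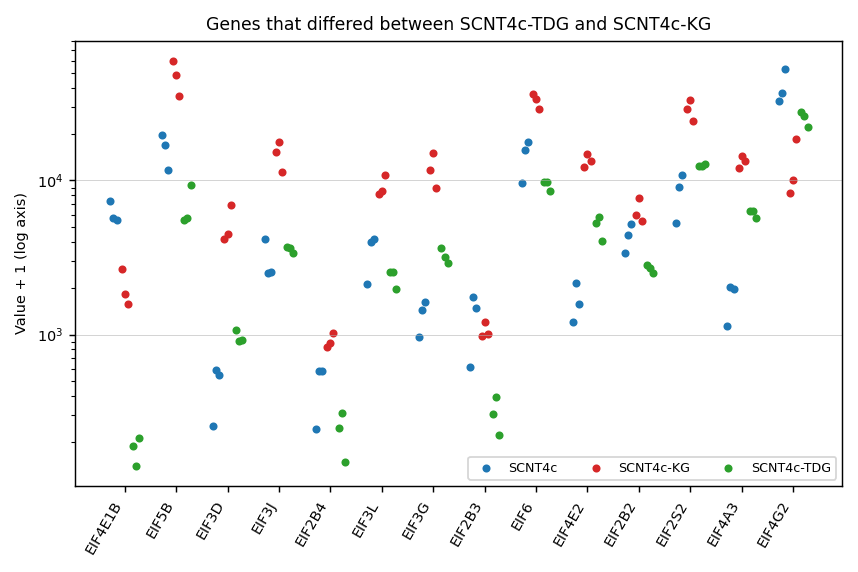
Values plus 1 on a log axis for the 14 genes that differed between SCNT4c-TDG (green) and SCNT4c-KG (red), with SCNT4c in blue and 1 point per library. In 13 of the 14 the green points are below the red ones, and EIF4G2 at the right is the exception.

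Partners and regulators of the initiation factors were taken from a list of 26 genes, of which 19 were tested among embryos. In SCNT4c-KG 5 rose and 2 fell and in SCNT4c-TDG 5 rose and 2 fell, shares near the 37.2% and 33.3% of all features changed. In SCNT8c limma called 0, with an unadjusted p under 0.05 for 8, while edgeR called 0 and DESeq2 called 5, beside 5.79%, 4.45% and 14.4% of all features. PABPC1, the poly(A)-binding protein that contacts eIF4G, rose from a mean of 474 in SCNT4c to 2310 in SCNT4c-KG (2.31 ± 0.36, adjusted p = 0.000175) and 3287 in SCNT4c-TDG (2.83 ± 0.36, adjusted p = 3.23e-05), and it stood at 39739 in PFF. PAIP2, an inhibitor of that protein, rose by 2.52 ± 0.34 in SCNT4c-KG and by 1.59 ± 0.34 in SCNT4c-TDG, with adjusted p of 5.88e-05 and 0.00243. PDCD4, an inhibitor of the eIF4A helicase, rose by 1.73 ± 0.27 in SCNT4c-KG and by 3.09 ± 0.27 in SCNT4c-TDG, with adjusted p of 0.000178 and 1.08e-06. PAIP1, which stimulates translation through the poly(A)-binding protein, fell by 2.52 ± 0.49 in SCNT4c-KG (adjusted p = 0.00113). MKNK2, a kinase of eIF4E, fell by 2.30 ± 0.51 in SCNT4c-TDG (adjusted p = 0.00297). PABPC1L, the oocyte type of the poly(A)-binding protein, had a mean of 923 in SCNT4c and 1.27 in PFF.

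The bases just before the annotated starts were searched for 5 short motifs. In the 250 bases before the annotated start of 48 protein-coding members, the letters GGGCGG were found on either strand in 34 (70.8%), against 45.9% of all 19556 protein-coding genes on chromosomes with such a window. TATAAA was found in 0 of the 48 and in 9.77% of all. CCAAT was found in 12 of the 48 (25%) and in 31.9% of all, CACGTG in 8 (16.7%) and 6.39%, and CCGGAAG in 6 (12.5%) and 7.77%. The windows of EIF1AX (chrX:16449582-16449831, minus strand) and EIF4E1B (chr2:81281669-81281918, minus strand) are shown because these genes moved in opposite directions in the treated embryos. Capitals mark the 4 matches to GGGCGG on either strand in EIF1AX, 2 of which overlap, and none of the 5 motifs was found for EIF4E1B.
EIF1AX: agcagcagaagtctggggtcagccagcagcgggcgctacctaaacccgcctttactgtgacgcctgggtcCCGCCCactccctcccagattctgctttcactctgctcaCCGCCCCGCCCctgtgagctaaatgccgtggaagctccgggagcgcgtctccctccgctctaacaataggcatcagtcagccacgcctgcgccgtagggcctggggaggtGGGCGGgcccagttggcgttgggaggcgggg
EIF4E1B: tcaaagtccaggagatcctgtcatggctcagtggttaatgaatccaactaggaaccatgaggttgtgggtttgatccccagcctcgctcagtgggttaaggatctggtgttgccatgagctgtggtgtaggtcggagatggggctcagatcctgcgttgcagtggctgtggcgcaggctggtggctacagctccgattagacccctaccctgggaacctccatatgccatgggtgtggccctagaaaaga
A match is a string of letters and not a bound site, and the start used is the end of the gene in the annotation. Both windows were picked by the expression of their genes, and a link between motifs and expression was not tested.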

How the data were processed

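According to the methods and the submitters' processing notes, Trimmomatic 0.39 was used by the authors for trimming, STAR 2.5.3a for alignment to the pig genome Sscrofa11.1 (unique alignments only), StringTie 2.1.2 for transcript assembly and HTSeq for counting. The deposited values are a normalized signal, counts divided by 1 factor per library whose source is not stated (the notes also list DESeq2). In each library 100% of values were whole multiples of 1 read (tolerance 0.01 reads), so reads were recovered by division. Of 43535 rows, 241 repeats were removed.

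Log2(value + 1) was tested with limma 3.58.1 (R 4.3.3, intensity trend) on features with a mean of at least 10. The 12 embryo libraries were fitted together, and SCNT4c and PFF in a fit of 6. A call needed a Benjamini-Hochberg adjusted p under 0.05 and over 2-fold. edgeR 4.0.16 and DESeq2 1.42.0 were run on recovered reads. The other alternatives were pseudocounts, filters, scalings, 2-group fits, libraries left out, a replicate block and, chosen after seeing the data, adding the assembled transcripts of a locus. Columns of SCNT4c are named a, b and c because the labels number them in conflicting ways. No pairing by replicate number was detected (9 correlations from -0.061 to 0.195). With 3 libraries per group and SCNT4c left out, these cannot exclude it. The members follow from the naming rule alone, but that rule and the lists were chosen with earlier results of these data known. Library values were given for EIF1AX, the paralogs of EIF4E, EIF1, EIF4A, EIF5A and EIF4G and up to 10 called genes per comparison, largest change first, for the groups compared. EIF2AK2, EIF2S1, EIF3E, EIF4EBP2 and EIF4ENIF1 were added after their values were seen.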

Additional observations from a re-analysis of the deposited data

How the results depend on the processing

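The number of genes called stayed within 1.5 times of the value reported for SCNT4c-KG against SCNT4c (23 to 27, and 21 to 23 with a library left out), for SCNT4c-TDG against SCNT4c (17 to 21, and 15 to 18) and for SCNT4c against PFF (28 to 39, and 30 to 32). SCNT4c-TDG against SCNT4c-KG gave 11 to 16, and 9 to 13 with a library left out, the lowest without SCNT4c-KG replicate 2. SCNT8c against SCNT4c was the comparison that depended on the setting. Its 9 genes became 0 in a fit of these 2 groups alone, where 13 had an unadjusted p under 0.05, and 18 with DESeq2, while edgeR called 10. With a library left out it ranged from 0 (without SCNT4c library b or SCNT8c replicate 1) through 1 (without SCNT8c replicate 2), 2 and 3 (without SCNT4c library a or c) to 27 (without SCNT8c replicate 3). The cause was not tested. Of 2 called values that changed sign, both did so with the assembled transcripts of the locus added: EIF5A in SCNT4c against PFF (1.71) and EIF2AK1 in SCNT4c-KG against SCNT4c (-0.32). The replicate block in a fit of the 9 numbered libraries left 14 genes called between SCNT4c-TDG and SCNT4c-KG. No paired analysis was possible because the labels number the SCNT4c columns in conflicting ways, for the comparisons with SCNT4c. Genes listed near 0, with fewer than 10 reads in SCNT4c, cannot give a dependable fold change at this depth.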

Other observations

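3 entries outside the rule are annotated as initiation factors under a locus number, and they were named after their values were seen. LOC100624149, a Y-linked gene annotated as subunit 3 of eIF2 (chrY:9827511-9847793), had a mean of 2429 ± 71.2 (SD, n = 3) in PFF, 12.1 ± 4.83 in SCNT4c, 188 ± 99.4 in SCNT4c-KG, 401 ± 122 in SCNT4c-TDG and 43.0 ± 28.2 in SCNT8c. EIF1AY, the other Y-linked gene here, had means of 1163, 155, 115, 94.0 and 1127 in the same order of groups. LOC110260088, annotated as subunit C of eIF3 (chr3:18467725-18489088), had a mean of 8663 ± 143 in PFF, 3351 ± 757 in SCNT4c, 11277 ± 1697 in SCNT4c-KG, 3866 ± 129 in SCNT4c-TDG and 7168 ± 3060 in SCNT8c. LOC100522498, annotated as eIF5, was listed at 0 in all libraries but SCNT4c-TDG replicates 1 and 2 (1.67 and 8.44).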
